A study of Mus musculus with 18 samples.

Results

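Open chromatin at the genes of the tumor necrosis factor (TNF) superfamily was compared between B cells and T cells of mouse spleen. The members were the regions of the deposited count table whose nearest gene end, within 50 kb, belonged to a protein-coding TNF superfamily ligand or receptor gene, a TRAF gene or a numbered TNF-alpha-induced protein gene, chosen by gene symbol. The rule took 90 of the 27396 regions, at 40 of the 55 genes of that name family in the annotation. The other 15 genes, among them Tnfsf13b, which encodes the B cell survival factor BAFF, Tnfrsf17 (BCMA), Tnfrsf4 (OX40) and Tnfrsf1a, had no region assigned and were not analysed here. Of the 90 regions, 41 lay at receptor genes, 16 at ligand genes, 15 at TRAF genes, 6 at genes for TRAF-interacting proteins and 12 at TNF-alpha-induced protein genes. By position, 21 regions covered a gene end, 46 lay inside a gene and 23 outside it. The farthest, chr10:18953811-18953931, lay 46979 bp beyond Tnfaip3, and 0 regions had a gene of this family as nearest beyond 50 kb.

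The study used laser capture microdissection, which cuts chosen cells out of a tissue section, on fresh frozen spleen of C57BL/6J wild-type mice (genotype wt), with B and T cells marked by immunostaining. Sections had been tagmented in place for ATAC-seq, in which a transposase cuts and tags accessible DNA, so that reads collect in open chromatin. A capture was either 10 patches of tissue holding about 1000 nuclei in all or 100 nuclei taken one at a time, giving 5 B patch, 5 T patch, 4 B 100-nuclei and 4 T 100-nuclei libraries. The libraries of a group are technical replicates per the series description, and no label ties a library to an animal, so p-values speak of the spread among libraries and would be too small if read as a comparison of mice. Neither the stained proteins nor the number or age of the mice is stated.

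TNF superfamily ligands are mostly trimeric membrane proteins that bind receptors on neighbouring cells. Receptors without a death domain recruit TRAF adaptor proteins, which pass the signal to NF-kB and kinase pathways, while death receptors such as Fas can start apoptosis. In the spleen, BAFF keeps mature B cells alive through its receptor, encoded by Tnfrsf13c, and also binds TACI, encoded by Tnfrsf13b. Cd27 is a costimulatory receptor of naive T cells, and lymphotoxins and TNF shape the B and T zones of the white pulp.

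Of the 40 genes, 34 had a RefSeq promoter sequence of build GRCm38.p6, which shares its coordinates with mm10. Each ran from 250 bases before the start to 50 after it, and 28 of these promoters were overlapped by a member region. The first 3 sequences shown are the promoters of the lymphocyte receptor genes whose summed accessibility differed between B and T patches. The last 2 are promoters of Ltb and Tnfaip3, which were open in B and T patches alike. All are written 5′ to 3′ on the strand of the gene, at chr15:82224331-82224630, chr11:61126505-61126804, chr6:125236978-125237277, chr17:35194257-35194556 and chr10:19015361-19015660, in that order.
Tnfrsf13c promoter: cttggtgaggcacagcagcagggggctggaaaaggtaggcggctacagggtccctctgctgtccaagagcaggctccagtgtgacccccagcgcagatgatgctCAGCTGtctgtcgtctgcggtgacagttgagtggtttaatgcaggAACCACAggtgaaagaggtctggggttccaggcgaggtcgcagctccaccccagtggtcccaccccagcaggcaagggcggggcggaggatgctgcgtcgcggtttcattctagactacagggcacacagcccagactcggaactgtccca
Tnfrsf13b promoter: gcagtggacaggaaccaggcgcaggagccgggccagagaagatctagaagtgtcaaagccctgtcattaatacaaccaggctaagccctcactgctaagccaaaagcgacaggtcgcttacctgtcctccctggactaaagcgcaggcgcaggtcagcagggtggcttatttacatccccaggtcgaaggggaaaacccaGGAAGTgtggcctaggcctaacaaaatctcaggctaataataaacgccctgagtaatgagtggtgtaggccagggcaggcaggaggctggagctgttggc
Cd27 promoter: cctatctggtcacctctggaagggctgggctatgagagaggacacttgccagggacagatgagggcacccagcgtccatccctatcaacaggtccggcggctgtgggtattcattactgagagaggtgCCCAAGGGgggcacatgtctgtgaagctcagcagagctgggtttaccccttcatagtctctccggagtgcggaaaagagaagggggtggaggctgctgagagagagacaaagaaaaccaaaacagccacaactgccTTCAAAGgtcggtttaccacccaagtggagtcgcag
Ltb promoter: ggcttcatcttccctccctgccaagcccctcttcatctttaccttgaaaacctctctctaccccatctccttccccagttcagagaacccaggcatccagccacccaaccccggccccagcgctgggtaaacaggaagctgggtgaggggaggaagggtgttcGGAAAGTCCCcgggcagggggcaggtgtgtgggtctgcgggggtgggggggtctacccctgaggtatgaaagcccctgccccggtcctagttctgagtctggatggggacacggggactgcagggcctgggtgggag
Tnfaip3 promoter: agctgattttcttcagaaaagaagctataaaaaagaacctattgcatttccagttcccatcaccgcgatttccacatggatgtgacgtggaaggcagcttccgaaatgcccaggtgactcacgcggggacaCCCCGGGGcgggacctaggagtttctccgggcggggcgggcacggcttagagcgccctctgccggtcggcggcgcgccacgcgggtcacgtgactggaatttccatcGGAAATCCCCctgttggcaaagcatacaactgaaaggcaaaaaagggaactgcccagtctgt
Capitals mark letters matched on either strand by 1 of the short motifs searched. In Tnfrsf13c these are CAGCTG (an E-box) and, beginning 101 bases before the start, the RUNX motif TGTGGTT read on the other strand. In Tnfrsf13b they are the ETS motif GGAAGT. In Cd27 they are CCCNNGGG (an EBF-type motif) and the TCF/LEF motif CTTTGAA on the other strand. In Ltb they are an NF-kB motif (GGG, any 2 bases, then TTTCC) on the other strand, beginning 87 bases before the start, and in Tnfaip3 the same NF-kB motif 12 bases before the start and a CCCNNGGG match.

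The NF-kB motif was found in 6 of the 28 member promoters, 21.4%, against 1.63% of all 32851 promoters of the same length. The 28 were taken for a member region over them and the 32851 were not, so the sets differ in more than gene family. The 6 were those of Ltb, Tnfaip3, Traf2, Traf3, Tnfrsf9 and Tnfrsf25, and in Traf3 the match overlapped a CCCNNGGG match. CCCNNGGG was found in 28.6% of the member promoters against 13.7% of all, GGAAGT in 21.4% against 23.8%, CAGCTG in 14.3% against 16.3%, CTTTGAA in 10.7% against 5.14% and TGTGGTT in 7.14% against 5.27%. An IRF motif (GAAA, any 2 bases, then GAAA) was found in 7.14% against 3.44%, and CTTTGAT in 0 of 28 against 3.73%. A match is a description of these letters and says nothing of whether a factor binds there.

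Patch libraries held 2193837 to 7343204 counts and 100-nuclei libraries 319481 to 1076765. The members took a like share of the nuclear counts in B patches (0.261% to 0.284%) and T patches (0.243% to 0.284%), and 69 to 90 of the 90 regions had a read in each patch library. At 100 nuclei, 6 libraries had reads in 26 to 37 member regions, and T libraries 3 and 4 in 8 and 10. The labels were checked against identity genes. Among B cell genes, named here after their values were seen, Ms4a1 summed to 89.6 to 140 normalized CPM (CPM scaled with TMM factors) in B patches and 3.03 to 19.1 in T patches, Cd79b to 102 to 343 and 35.7 to 93.8, and Pax5 to 29.5 to 42.1 and 5.82 to 27.6. Ms4a1 and Cd79b were called higher in B and Pax5 was not (edgeR adjusted p = 8.27e-05, 0.000898 and 0.379). The 29 regions at 11 T cell genes such as Cd3e and Lef1 took 0.0260% to 0.0479% of nuclear counts in B patches and 0.117% to 0.178% in T patches. Patches also differed in markers of other cells. Regions at 3 of 7 macrophage genes took 0.0160% to 0.0280% in B patches and 0.00308% to 0.0156% in T patches, a difference carried by 1 of the 3 genes. Adgre1 had a log2 fold change, B minus T, of 1.97 ± 0.34 (SE; edgeR adjusted p = 0.00179), while Itgam stood at -1.85 ± 1.14 and Csf1r at -0.08 ± 1.29. Regions at 2 of 5 dendritic cell genes took 0.0142% to 0.0258% and 0.00380% to 0.0123%, and those at 2 of 6 stromal and endothelial genes 0.00938% to 0.0146% and 0.0182% to 0.0302%. These 2 went opposite ways: Pecam1 was lower in B (-1.15 ± 0.23, edgeR adjusted p = 0.00480), and the endothelial gene Cdh5 stood at 2.30 ± 1.04 (edgeR adjusted p = 0.293), with every B library above every T library. No region was assigned to 4 neutrophil genes. The part of these cells in the differences at TNF family genes was not tested. In such bulk captures, fewer cells of a type and less open chromatin per cell cannot be told apart.

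Chromatin at the BAFF receptor genes with regions, Tnfrsf13c and Tnfrsf13b, and at the ligand gene Tnfsf18 was more accessible in B patches. At Cd27 it was more accessible in T patches. These 4 were the genes called among the 40 (3 higher and 1 lower in B) when the counts of all regions assigned to a gene were summed and tested with edgeR at an adjusted p under 0.05. That is 10.0% of the members, beside 4.50% of all 14406 genes tested (2.46% higher and 2.03% lower). Unadjusted p was under 0.05 for 11 of the 40, beside 15.0% of all genes. At the level of single regions, 3 of the 89 members that passed the filter on low counts were called (1 higher, 2 lower in B), beside 2.27% of all 25712 regions (1.22% higher and 1.05% lower). Unadjusted p was under 0.05 for 18 member regions, beside 12.7% of all. The filter is taken over the 4 groups, and the region it left out, at Tnfrsf21 (chr17:43017172-43017288), had few reads. Without the B and T libraries numbered 2, which had reads in 69 member regions each, 5 regions and 6 genes were called, beside 4.50% of all regions and 7.50% of all genes under that setting. In a fit joined with the 100-nuclei libraries 0 were called, of the members and of all features alike. DESeq2 called 12 member regions and 6 member genes, beside 8.18% and 8.26% of all. The median log2 fold change, B minus T, was -0.05 over the member regions and -0.03 over all regions. The median size without sign was 0.89 over the members and 0.57 over all. All levels below are normalized CPM, and all fold changes are log2, B minus T, with the standard error.

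**Figure D1:**
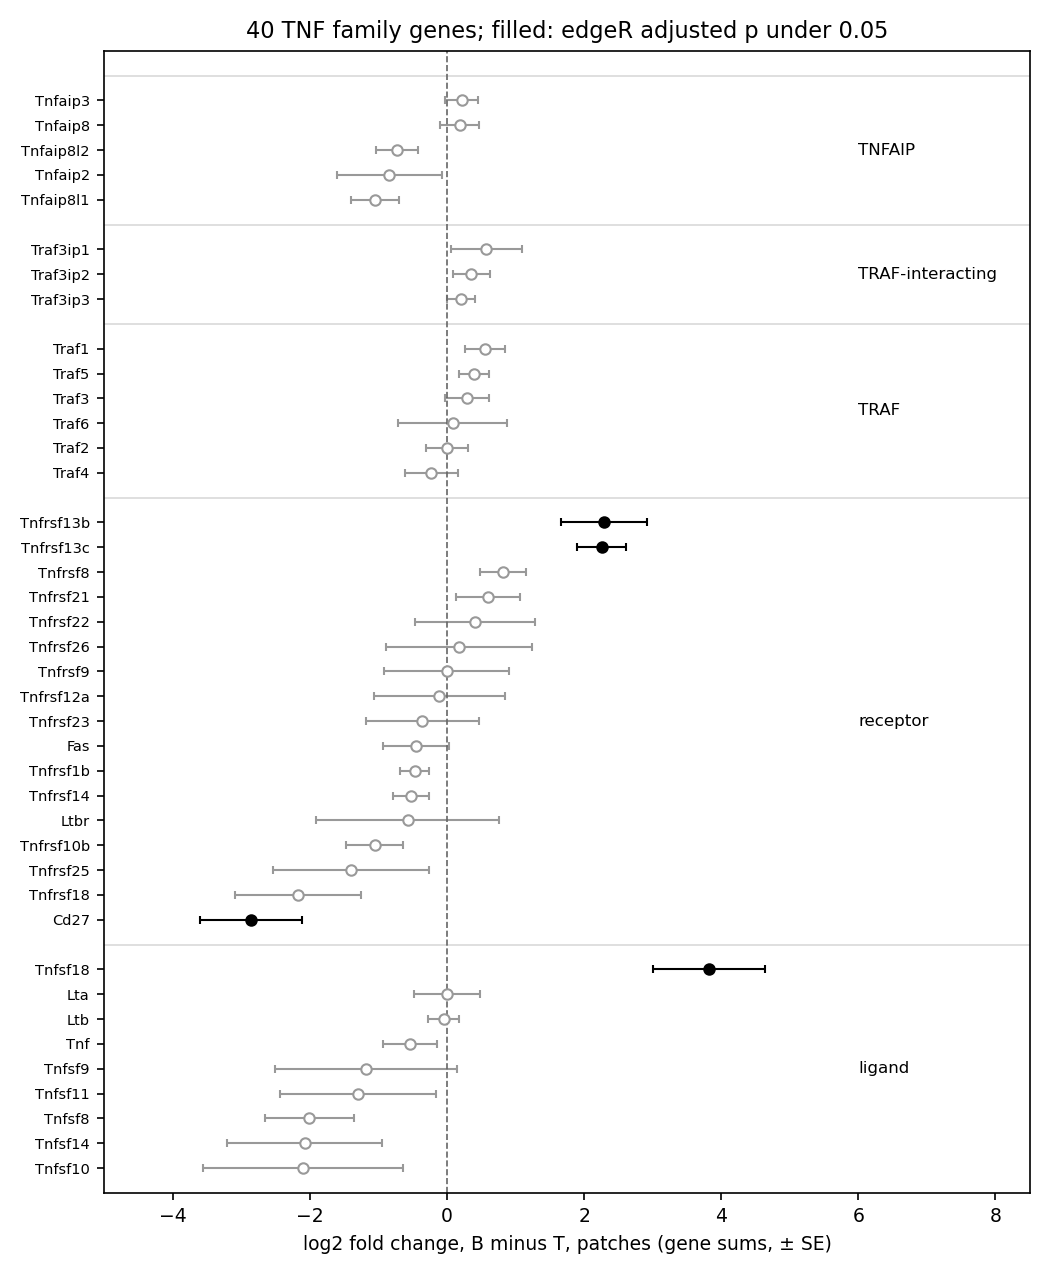
Log2 fold change, B minus T, in patches (x axis) for each of the 40 genes (y axis, grouped by role), from counts summed over each gene's regions, with bars of 1 SE. The 4 filled points are the genes with an edgeR adjusted p under 0.05: Tnfrsf13b (2.29), Tnfrsf13c (2.26) and Tnfsf18 (3.82) to the right of 0, and Cd27 (-2.86) to the left.

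Tnfrsf13c, at chr15:82221742-82224380, encodes the receptor through which BAFF supports mature B cells. Its 4 regions summed to 127, 167, 111, 93.0 and 123 normalized CPM in the 5 B patch libraries and to 27.3, 8.65, 19.9, 28.0 and 44.9 in the 5 T patch libraries. The lowest B library stood above the highest T library by a wide margin. The difference was 2.26 ± 0.36, a 4.78-fold higher level in B (edgeR adjusted p = 0.000813), and it passed without each library in turn, with adjusted p from 0.000391 to 0.00464.

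The 4 Tnfrsf13c regions differed among themselves in how cleanly they separated B patches from T patches. The region called was chr15:82218877-82219067, 2675 bp downstream of the gene and overlapping no other annotated gene. It held 19.2, 23.9, 23.0, 21.2 and 29.2 normalized CPM in B and 1.02, 0, 0.927, 0 and 0.222 in T, which is a nearly closed region in T patches. The difference was 5.57 ± 1.08 (edgeR adjusted p = 0.00896). The region over the start of the gene, chr15:82224308-82224549, overlaps the promoter shown above and held 75.8, 59.5, 71.9, 31.1 and 64.4 in B. In T it held 18.8, 0, 5.03, 20.5 and 33.8, so the groups overlapped narrowly, and its difference of 1.95 ± 0.67 did not pass (edgeR adjusted p = 0.152). The region inside the gene, 958 bp from its start, gave 2.12 ± 0.88 (edgeR adjusted p = 0.276), and DESeq2 called it (adjusted p = 0.0441). The region 1603 bp upstream gave 1.68 ± 1.02 (edgeR adjusted p = 0.575). Both had overlapping groups.

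Tnfrsf13b, at chr11:61126283-61153170, encodes TACI, which binds BAFF and its relative APRIL and is carried by mature B cells. Its 5 regions summed to 94.2, 119, 90.6, 79.1 and 62.4 normalized CPM in B patches and to 46.5, 0.432, 8.15, 5.85 and 29.6 in T patches. Every B library was above every T library, although T library 1 came near the lowest B library. The difference was 2.29 ± 0.63 (edgeR adjusted p = 0.0418). Among the fits that left out 1 library the call held in 2, without T library 1 or without T library 2. Without any other library, that is B library 1, 2, 3, 4 or 5 or T library 3, 4 or 5, the adjusted p was 0.0553 to 0.120 and the difference 2.06 to 2.53. It was also lost with library size alone in place of TMM factors (2.09, adjusted p = 0.0641) and with a 10 kb limit (2.43, adjusted p = 0.0535).

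No single Tnfrsf13b region passed with edgeR, and DESeq2 called 2 of the 5. The one inside the gene at its start, chr11:61126608-61126851, overlaps the promoter shown above and held 30.3, 37.1, 27.8, 24.8 and 16.8 in B against 22.9, 0.402, 0.927, 0 and 8.89 in T. T library 1 was the only T library above the lowest B value there. The other 4 lay upstream. At chr11:61116158-61116290, 9993 bp away, the B libraries (13.1, 34.9, 18.2, 18.9 and 7.97) were all above the T libraries (0, 0, 1.46, 3.01 and 6.00), with a difference of 3.12 ± 1.15 (edgeR adjusted p = 0.196, DESeq2 adjusted p = 0.0140). The abutting pair at chr11:61122902-61123078 and chr11:61123079-61123251 behaved differently from each other, with differences of 0.36 ± 1.52 and 4.58 ± 1.49 (edgeR adjusted p = 0.979 and 0.123); DESeq2 called the second of them (adjusted p = 0.00529). The farthest, 17125 bp upstream, gave 1.89 ± 0.96 (edgeR adjusted p = 0.439).

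**Figure D2:**
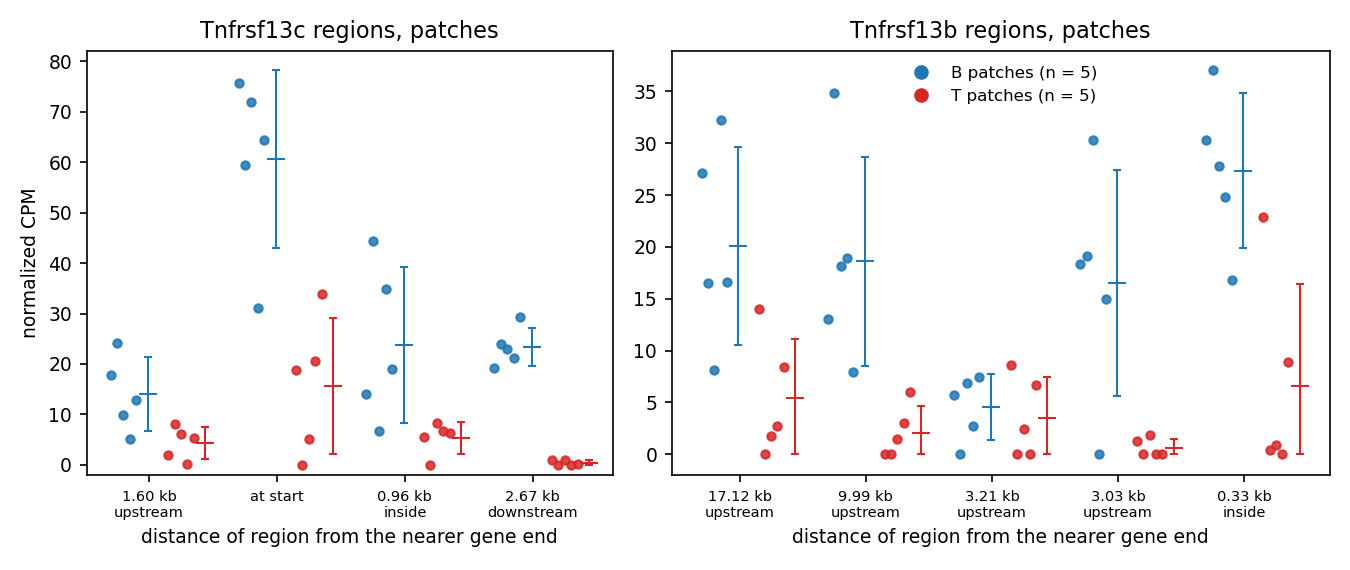
Normalized CPM (y axis) of each region at Tnfrsf13c (left) and Tnfrsf13b (right) in 5 B patch and 5 T patch libraries, with regions placed along the x axis in the direction of the gene. Points are libraries, and the bars beside them are the mean with 1 SD, stopped at 0; the downstream Tnfrsf13c region is at 19.2 to 29.2 in B and at 0 to 1.02 in T.

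Cd27, at chr6:125232620-125237136, encodes a receptor for CD70 that costimulates T cells. It had 1 region, chr6:125237001-125237116, which overlaps the promoter shown above and also the annotated gene E130112N10Rik. The region held 10.4, 0, 13.6, 4.96 and 7.64 normalized CPM in B patches and 30.3, 121, 14.6, 57.1 and 37.3 in T patches. The T libraries were spread widely, and the lowest of them was just above the highest B library. The difference was -2.80 ± 0.73 (edgeR adjusted p = 0.0459) in the fit over regions and -2.86 ± 0.74 (edgeR adjusted p = 0.0295) in the fit over genes, which rests on the same counts. Over genes, leaving out any of B libraries 1, 4 and 5 and T libraries 2 and 4 ended the call (adjusted p 0.0602 to 0.110). Over regions it held without B library 2 and was lost without any other library (adjusted p 0.0501 to 0.143).

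Several other receptors stood apart between B and T patches without passing the edgeR test on all libraries. Over all members 12 regions had groups that did not overlap, 6 higher and 6 lower in B, beside 8.03% of all regions (4.33% higher, 3.69% lower). The same held for 8 genes, 4 higher and 4 lower, beside 8.42% of all genes (4.45% higher, 3.97% lower). At Tnfrsf8, which encodes the activation receptor CD30, the region chr4:145300163-145300683 inside the gene held 53.1, 50.3, 54.6, 53.4 and 50.0 in B and 9.92, 18.9, 19.3, 35.1 and 12.4 in T. The B libraries were closely alike there, and the difference was 1.45 ± 0.43 (edgeR adjusted p = 0.0847); without T library 4 it was 1.79, with adjusted p = 0.0494, and without both patch libraries 2 it was 1.46, with adjusted p = 0.0492. DESeq2 called this Tnfrsf8 region on all libraries (adjusted p = 0.00492). At Tnfrsf1b, which encodes the TNF receptor that signals through TRAFs, a region inside the gene, chr4:145236180-145236388, held 15.2, 1.47, 5.85, 9.02 and 11.8 in B and 31.8, 19.3, 43.7, 32.6 and 49.1 in T. Its difference was -2.01 ± 0.62 (edgeR adjusted p = 0.100); DESeq2 called it (adjusted p = 0.00413), and so did edgeR without both patch libraries 2 (-1.90, adjusted p = 0.0230). The region over the start of the same gene, at 37.9 to 80.4 in B and 32.9 to 120 in T, gave -0.29 ± 0.36 (edgeR adjusted p = 0.883).

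The genes of a pair of receptors known from T cells, Tnfrsf18 and Tnfrsf14, each had a region with higher values in T patches. At Tnfrsf18, which encodes GITR, a receptor of regulatory and activated T cells, the region chr4:156026457-156026573 held 1.35, 0, 2.72, 0 and 0.498 in B and 8.90, 4.82, 11.8, 7.52 and 21.1 in T. Both groups of patches were low, and the difference of -3.51 ± 1.40 did not pass with edgeR (adjusted p = 0.248) and passed with DESeq2 (adjusted p = 0.0179). At 100 nuclei Tnfrsf18 had reads in 1 B library (113) and 2 T libraries (34.6 and 109). In the joint fit the same region was higher in B at 100 nuclei (8.68, edgeR adjusted p = 0.0249). The Tnfrsf18 region starting at 156026290 was lower there (-8.92, edgeR adjusted p = 0.0252). At Tnfrsf14, which encodes the herpesvirus entry mediator that binds LIGHT, the region chr4:154936607-154936817, 7987 bp upstream, held 10.7, 13.6, 8.36, 0 and 3.49 in B and 21.4, 21.3, 36.4, 26.8 and 42.0 in T (-2.04 ± 0.81, edgeR adjusted p = 0.248). The other 4 Tnfrsf14 regions had overlapping groups, and the sum over the gene gave -0.52 ± 0.27 (edgeR adjusted p = 0.379).

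The death receptor genes were not called by edgeR on all libraries. Fas was open at its start in both, at 11.9 to 35.6 in B and 14.7 to 59.4 in T (-0.45 ± 0.48, edgeR adjusted p = 0.846). Tnfrsf10b, the TRAIL receptor gene, summed to 31.4, 12.1, 17.6, 22.5 and 27.3 in B and 46.5, 37.6, 67.6, 41.4 and 38.6 in T. The groups did not overlap, and the difference was -1.06 ± 0.42 (edgeR adjusted p = 0.193). Tnfrsf25, the gene for death receptor DR3, and Tnfrsf21, the gene for DR6, had overlapping groups over their summed counts. Tnfrsf21 was at 37.7, 47.3, 37.5, 73.2 and 56.6 in B and 20.5, 87.3, 22.2, 13.0 and 25.2 in T. T library 2 was the only T library above the lowest B library. The difference was 0.60 ± 0.47 (edgeR adjusted p = 0.673). Without both patch libraries 2 edgeR called Tnfrsf21 (1.34, adjusted p = 0.0323), and on all libraries DESeq2 called 1 of its regions, the one starting at 43032627 (2.98, adjusted p = 0.0489). Tnfrsf22, Tnfrsf23 and Tnfrsf26 lie next to each other on chromosome 7 and resemble each other in sequence, so their counts, 0 to 60.7 in every patch library, are uncertain. Of all 17 receptor genes, 2 were higher in B, 1 was lower and 14 did not pass with edgeR on all libraries.

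Among the 9 ligand genes, Tnfsf18 was the 1 called by edgeR, and 7 had a fold change below 0. Tnfsf18, at chr1:161494657-161505290, encodes the ligand of GITR, known mainly from antigen-presenting and endothelial cells. Its 2 regions summed to 32.6, 56.6, 51.2, 49.0 and 27.5 in B patches and to 0, 0.432, 2.84, 8.39 and 3.29 in T patches. All 5 B libraries were well above all T libraries. The difference was 3.82 ± 0.81 (edgeR adjusted p = 0.00816), and it passed without each library in turn, with adjusted p from 0.00516 to 0.0298. As given above, summed dendritic cell markers, Adgre1 and Cdh5 also had higher values in every B patch library than in every T patch library, while Itgam, Csf1r and Pecam1 did not. Their part in this result was not tested.

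Both Tnfsf18 regions lay inside the gene and both had groups that did not overlap. The first, chr1:161500199-161500634, held 24.0, 36.0, 28.0, 28.9 and 18.3 in B and 0, 0.402, 2.38, 8.27 and 0.445 in T (3.52 ± 0.996, edgeR adjusted p = 0.0679). The second, chr1:161500848-161500968, held 8.71, 15.4, 23.6, 19.8 and 9.80 in B and 0, 0, 0.530, 0 and 2.89 in T (4.40 ± 1.36, edgeR adjusted p = 0.101). Neither passed alone with edgeR, while DESeq2 called both on all libraries (adjusted p = 0.00106 and 0.00104). With edgeR, leaving out the T library with the highest value made each pass: library 4 for the first (4.90, adjusted p = 0.0247) and library 5 for the second (6.30, adjusted p = 0.0400).

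Of the other ligands, Tnfsf8, which encodes the CD30 ligand, was lower in every B library than in every T library. Its 3 regions summed to 27.2, 0.404, 17.0, 3.63 and 20.6 in B and 50.6, 78.2, 47.8, 29.8 and 75.4 in T, a difference of -2.01 ± 0.65 (edgeR adjusted p = 0.0931). DESeq2 called Tnfsf8 (-2.05, adjusted p = 0.0232), and edgeR did without both patch libraries 2 (-1.56, adjusted p = 0.0471). The receptor gene Tnfrsf8 had the opposite sign, at 0.82 ± 0.33 (edgeR adjusted p = 0.220) over its 3 regions. Tnfsf14, the LIGHT gene, gave -2.08 ± 1.14 (edgeR adjusted p = 0.437) with overlapping groups.

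The lymphotoxin and TNF genes, which sit side by side on chromosome 17, did not differ beyond the spread of the libraries. Ltb, the gene for the membrane anchor of lymphotoxin, summed to 94.1 to 138 in B and 75.5 to 143 in T over 4 regions (-0.05 ± 0.23, edgeR adjusted p = 0.964). The region over its start held 43.8, 7.71, 20.7, 43.7 and 45.7 in B and 50.6, 34.2, 41.1, 31.3 and 69.8 in T. Tnf summed to 18.6 to 48.9 in B and 23.9 to 83.4 in T (-0.54 ± 0.40, edgeR adjusted p = 0.637). The single Lta region lay 4.62 kb upstream of the gene, at 24.6 to 77.1 in B and 10.8 to 67.9 in T, with a fold change of 0.01 ± 0.48 (edgeR adjusted p = 0.998).

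No TRAF region or gene was called. Traf5, which encodes an adaptor used by costimulatory receptors, had 5 regions that summed to 189 to 227 in B and 101 to 220 in T (0.39 ± 0.22, edgeR adjusted p = 0.461). At its start, chr1:192092382-192092775, the B libraries held 122, 68.6, 121, 84.1 and 86.3 and the T libraries 56.7, 17.7, 91.3, 99.0 and 45.8, with overlapping groups (0.63 ± 0.37, edgeR adjusted p = 0.545). A region 2597 bp inside the gene, chr1:192089886-192090002, held 22.2, 69.4, 25.7, 21.9 and 22.9 in B and 19.8, 16.9, 5.96, 1.25 and 8.67 in T. Its groups did not overlap, and the difference of 1.63 ± 0.68 did not pass (edgeR adjusted p = 0.280).

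Traf2 and Traf3 encode adaptors that hold back the alternative NF-kB pathway in resting B cells. The region over the start of Traf2 held 140, 52.9, 117, 69.0 and 121 in B and 107, 41.8, 131, 77.2 and 112 in T. The difference was 0.09 ± 0.33 (edgeR adjusted p = 0.973), with a sign that turned under some settings. The start of Traf3 held 37.1 to 93.0 in B and 20.9 to 86.3 in T (0.29 ± 0.36, edgeR adjusted p = 0.891). Traf1, which NF-kB itself induces, summed to 66.8 to 110 in B and 38.0 to 80.2 in T (0.56 ± 0.29, edgeR adjusted p = 0.408). The 15 TRAF regions ran from -1.40 to 1.63, with a median of 0.09.

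All 6 regions at the genes for TRAF-interacting proteins had a fold change above 0, from 0.06 to 0.92, and none was called. Traf3ip2 encodes the Act1 adaptor of interleukin-17 receptors and was open at 59.0 to 101 in B and 55.8 to 85.6 in T (0.35 ± 0.28, edgeR adjusted p = 0.743). The start of Traf3ip3 was open at 74.5 to 131 in B and 71.9 to 136 in T (0.06 ± 0.27, edgeR adjusted p = 0.980).

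Of the 12 regions at TNF-alpha-induced protein genes, 9 had a fold change below 0 and 1 was called, by edgeR and DESeq2 alike. This was chr17:56163856-56164030, 1417 bp inside Tnfaip8l1, a gene of the TIPE family. It held 2.85, 7.71, 7.53, 4.73 and 6.14 in B and 47.0, 38.6, 27.4, 18.5 and 22.9 in T. Every T library was above every B library, and the difference was -2.41 ± 0.64 (edgeR adjusted p = 0.0470). The call held without B library 2 and was lost without any other library (adjusted p 0.0576 to 0.168), and also with no filter on low counts (adjusted p = 0.0504), with mitochondrial regions left out of the scaling (adjusted p = 0.0543) and with a replicate block (adjusted p = 0.140). Summed over its 3 regions, Tnfaip8l1 gave -1.05 ± 0.35 (edgeR adjusted p = 0.105), which DESeq2 called (adjusted p = 0.0438).

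Tnfaip8l2, the gene of TIPE2, a restraint on immune signalling, had 3 regions and a summed difference of -0.73 ± 0.31 (edgeR adjusted p = 0.241). At its start the B libraries held 18.8, 0, 11.5, 17.1 and 16.6 and the T libraries 38.9, 19.7, 19.6, 24.6 and 22.2, which did not overlap (-0.96 ± 0.76, edgeR adjusted p = 0.745). Tnfaip3 encodes A20, the ubiquitin-editing enzyme that shuts off NF-kB signalling. The region over its start, chr10:19014616-19015622, held 96.7, 119, 94.5, 169 and 98.1 in B and 87.5, 87.6, 89.4, 131 and 84.7 in T (0.26 ± 0.26, edgeR adjusted p = 0.824). Tnfaip3 carries the NF-kB motif in its printed promoter, as Ltb does, and neither gene differed beyond the spread of the libraries.

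**Figure D3:**
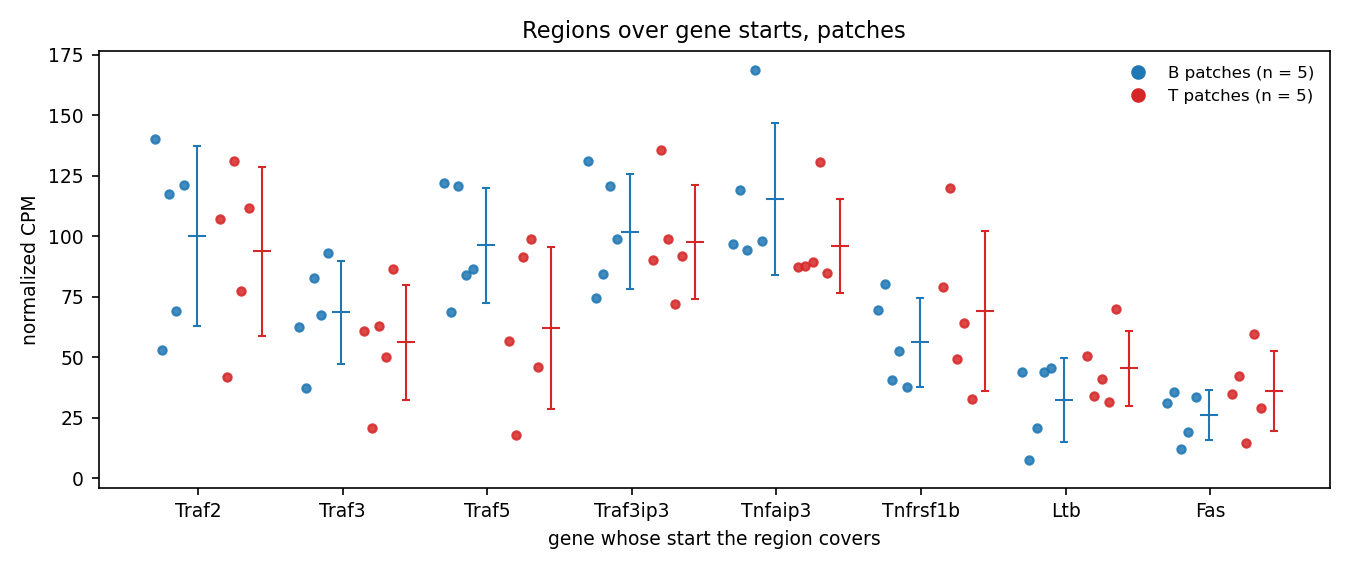
Normalized CPM (y axis) of the region over the start of 8 genes (x axis) in 5 B patch and 5 T patch libraries. Points are libraries, and the bars beside them are the mean with 1 SD. The 8 were picked as starts open in B and T patches alike, and at each the B and T libraries overlap. Examples are Traf2 (52.9 to 140 in B, 41.8 to 131 in T) and Tnfaip3 (94.5 to 169 and 84.7 to 131). Of all 29 member regions that overlap the promoter of their gene, 2 had groups apart, those of Cd27 and Tnfaip8l2, both lower in B and not drawn here.

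The genes downstream of these receptors were read from a list of 34 genes of NF-kB and death signalling, of which 31 had regions. None of their 81 tested regions was called in patches, beside 2.27% of all regions. Unadjusted edgeR p was under 0.05 for 6 of the 81, beside 12.7% of all regions. Over genes, 1 was higher and 1 lower in B, 6.45% of the list beside the 4.50% of all genes, and the median fold change was -0.06 beside -0.02 over all genes. Birc3 encodes a ubiquitin ligase that works with TRAF adaptors, and summed to 242, 332, 231, 222 and 165 in B and 163, 129, 93.9, 149 and 155 in T. The groups did not overlap, and the difference was 0.79 ± 0.22 (edgeR adjusted p = 0.0485), a call that held without B library 5 and was lost without any other library (adjusted p 0.0635 to 0.147), without both patch libraries 2 (0.0817), with RLE factors (0.0538), with library size alone (0.161), with a replicate block (0.0851) and with a 10 kb limit (0.0899). Tnip3, a gene for a partner of A20, summed to 42.3, 24.3, 17.8, 59.6 and 18.5 in B and 87.5, 156, 86.4, 113 and 49.3 in T, with groups that overlapped. Its difference was -1.59 ± 0.39 (edgeR adjusted p = 0.0214), a call that ended when B library 3, B library 5 or T library 4 was left out (adjusted p 0.0537 to 0.0654) and with a 10 kb limit (0.0957). Of 9 superfamily genes that the naming rule does not take, 4 had regions and none was called. Among them Cd40, the receptor for T cell help on B cells, had 1 region, at 9.91 to 39.8 in B and 0 to 18.8 in T (1.80 ± 0.88, edgeR adjusted p = 0.411).

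At 100 nuclei the comparison was far less precise. Of the 90 member regions, 75 had a read in at least 1 of the 8 libraries. None of the 75 regions and none of the 37 genes tested was called by edgeR, beside 0.0184% of all 21784 regions and 0.0303% of all 13184 genes. Unadjusted p was under 0.05 for 4 member regions, beside 6.49% of all, and for 2 genes, beside 6.04%, and DESeq2 called 0 member regions and 0 member genes, beside 0% and 0.918% of all. The median fold change over all genes was 0.44 rather than near 0, so single values are to be read against that shift.

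The 4 genes called in patches kept their sign at 100 nuclei, and other member genes did not all do so. Tnfsf14 stood at -2.08 ± 1.14 in patches and 7.12 ± 3.83 at 100 nuclei, and Tnfaip8l2 at -0.73 ± 0.31 and 5.72 ± 3.45. Neither passed at 100 nuclei (edgeR adjusted p = 0.443 for both). Tnfsf14 had reads in 2 B and 0 T libraries there, and Tnfaip8l2 in 3 and 1. Tnfrsf13c summed to 86.0, 27.4, 288 and 281 normalized CPM in the 4 B libraries and to 11.9, 22.3, 0 and 0 in the 4 T libraries. The groups did not overlap, which held for 2 of the 37 genes, both higher in B, beside 2.39% of all genes (2.01% higher in B). Its difference was 4.29 ± 2.17 (edgeR adjusted p = 0.443). Both zeros came from T libraries 3 and 4, which had reads in the fewest regions. Without these libraries 0 member regions and 0 member genes were called, beside 0.0188% of all regions and 0.0539% of all genes. Unadjusted edgeR p was then under 0.05 for 4 member regions and 1 member gene, beside 2.83% of all regions and 3.32% of all genes. The downstream region called in patches had reads in 4 of 4 B libraries and in 1 of 4 T libraries.

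The other 3 genes called in patches were read unevenly. Tnfrsf13b had reads in 1 B library (317) and 1 T library (89.2) and was at 0 in the other 6. Tnfsf18 was at 11.5, 95.8, 0 and 80.6 in B and 22.6, 3.35, 0 and 14.3 in T, with overlapping groups (edgeR adjusted p = 0.9999). Cd27 was at 0 in all 4 B libraries and at 61.7, 78.1, 0 and 0 in T. Libraries at 0 in both groups left the Cd27 groups overlapping.

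Traf5 was the other gene with groups that did not overlap, at 243, 258, 148 and 129 in B and 86.7, 35.7, 0 and 0 in T (2.66 ± 1.82, edgeR adjusted p = 0.531). Of its regions, the 1 with groups apart was chr1:192086418-192087127, at 109, 139, 92.0 and 90.7 in B and 23.2, 0, 0 and 0 in T, the only such member region beside 1.39% of all regions (1.24% higher in B). In patches the same region held 29.4 to 62.4 in B and 31.1 to 80.9 in T, with a fold change of -0.14 ± 0.37 (edgeR adjusted p = 0.962).

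**Figure D4:**
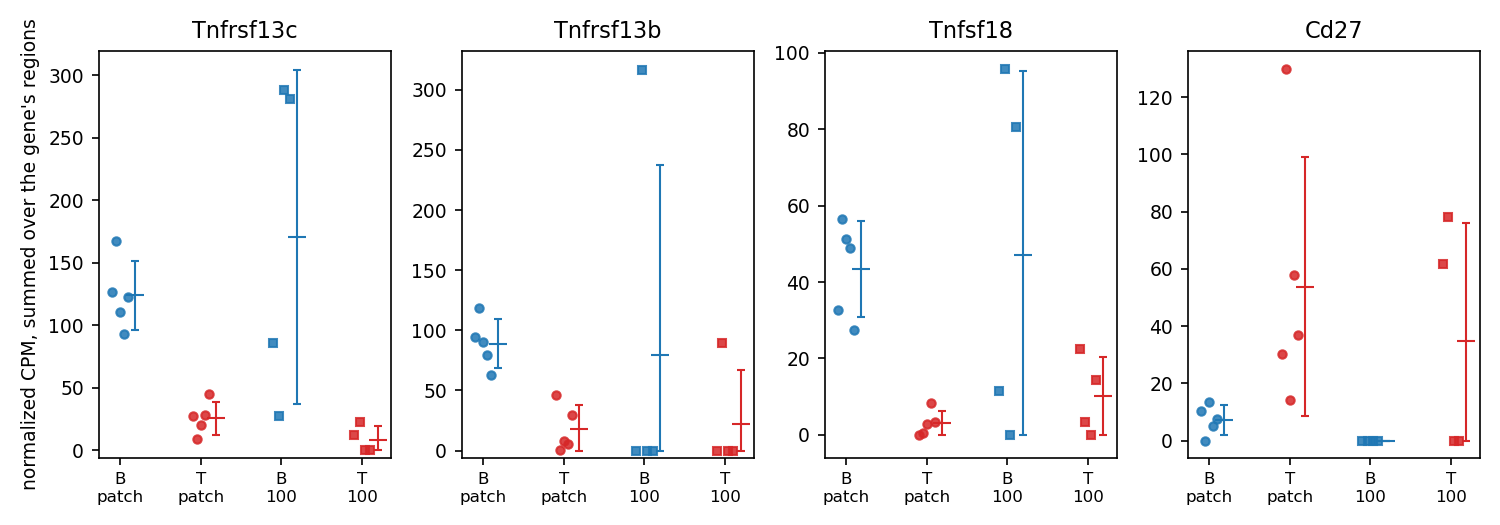
Normalized CPM summed over each gene's regions (y axis, a separate scale for each gene) for the 4 genes called in patches, in B and T libraries of patches (circles, n = 5 each) and of 100 nuclei (squares, n = 4 each; x axis). The bars beside the points are the mean with 1 SD, stopped at 0; at 100 nuclei Tnfrsf13c is the 1 gene of the 4 whose B libraries (27.4 to 288) are all above the T libraries (0 to 22.3).

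Whether the difference between B and T cells itself changed with the size of the capture was tested on all 18 libraries. None of the 89 regions and none of the 40 genes was called by edgeR, beside 0% of all regions and 0.521% of all genes (0.0278% higher, 0.493% lower). Unadjusted p was under 0.05 for 26 member regions and 7 genes, beside 27.1% of all regions and 20.1% of all genes. DESeq2 called 10 and 4, beside 12.4% and 10.2%, so the members' shares lay near those of all features. The 4 genes were Tnfaip8l2, Tnfsf14, Tnfrsf21 and Traf6 (DESeq2 adjusted p = 0.000573, 0.00366, 0.00508 and 0.0382). Their DESeq2 estimates were -6.65, -8.94, -7.15 and -6.76, so B minus T was lower in patches than at 100 nuclei. At 100 nuclei they had reads in 3, 2, 2 and 1 B libraries and in 1, 0, 0 and 0 T libraries. These calls thus rest on few libraries with reads. For Tnfrsf13c, Tnfrsf13b, Tnfsf18 and Cd27 the edgeR adjusted p was 0.614, 0.99997, 0.956 and 0.286. This fit gives every library 1 shared spread per gene, although libraries of 100 nuclei scatter far more than patches, and a p that misses the threshold does not show that the differences were equal.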

How the data were processed

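The members and gene lists were chosen with earlier results of these data known. The authors deposited 1 table of raw whole-number counts for 27396 regions in 18 libraries, which were matched to the labels by column name. Per the submitters' processing notes, Trimmomatic 0.36, Bowtie2 2.4.5, Picard and MACS2 2.2.7.1 were used on mm10; their settings, how duplicate reads were treated and whether reads were shifted for the transposase are not stated there. Coordinates are as the file gives them, and whether a start counts from 0 or 1 is not stated. Each region was given the gene of any kind, in RefSeq GRCm38.p6, with the nearest end within 50 kb, which assigned 95.1% of regions. Of the member regions, 8 also overlap another gene.

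Counts were tested with edgeR 4.0.16 (R 4.3.3): TMM scaling, quasi-likelihood F-tests, and adjusted p-values (Benjamini-Hochberg over all features, threshold 0.05). Features were kept by filterByExpr across the 4 groups, minimum count 10, with a read in the libraries fitted. Each capture size was fitted on its own libraries. Standard errors come from the log2 fold change over the root of F. Named in the text are all members called by edgeR in the main tests, Tnfrsf13c and Tnfrsf13b, and in each role group the smallest p-values. Regions over gene starts are given for some genes only, and those of other members, such as Traf4, Tnfaip2 and Ltbr, are not given singly. Alternatives were DESeq2 1.42.0, other scalings, filters, gene limits and left-out libraries. The gene-level test of capture size and the fit without T 100-nuclei libraries 3 and 4 were added after seeing the data.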

Additional observations from a re-analysis of the deposited data

Results flagged for a closer look

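Of 98 groups of libraries checked, 10 held a library whose gap to the nearest other spanned an unusually large share of the group's range. The cutoffs flag about 1 in 20 groups by chance where values are normally distributed. Groups of low counts with zeros are not, so that rate is no measure for the 10. In B patches, Traf5 chr1:192089886-192090002 was at 69.4 normalized CPM in library 2 and 21.9 to 25.7 in the others (gap 0.919 of the range), Tnfsf8 chr4:63860878-63861007 at 12.5 in library 5 and 0 to 2.55 (0.795), and the Tnfaip8l1 start region at 3.67 in library 2 and 25.02 to 33.2 (0.723). In T patches, library 4 was high at the Tnfaip3 start (131 against 84.7 to 89.4, gap 0.898), at Traf3ip3 chr1:193207592-193207732 (22.3 against 4.32 to 7.23, gap 0.838) and at Tnfsf18 chr1:161500199-161500634 (8.27 against 0 to 2.38, gap 0.712). T patch library 5 was high at the other Tnfsf18 region (2.89 against 0 to 0.530, gap 0.817), and T patch library 1 at the Tnfaip8l2 start (38.9 against 19.6 to 24.6, gap 0.743). At 100 nuclei, Tnfrsf13b had reads in library 2 alone in both groups, at 317 in B and 89.2 in T. The gap was 1 of the range in each, as it must be where all other libraries are at 0.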

How the results depend on the processing

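Of the named regions and genes in patches, 7 values turned sign: Tnf chr17:35202011-35202140 without T library 2 (0.295) and without both patch libraries 2 (0.111), Tnfaip8 without T library 2 (-0.0021), the Traf2 start with library size alone (-0.054), without B library 1 (-0.058) and without T library 2 (-0.110), and gene Tnfrsf8 with a 10 kb limit (-1.16). Without each library in turn these regions ran from -0.368 to 0.295, -0.0021 to 0.325 and -0.110 to 0.254, and none was called. In patches, 3 of 89 member regions were called in the main test, 12 by DESeq2, 1 with a replicate block, 5 without both libraries 2, 0 in a joint fit with the 100-nuclei libraries and 1 to 3 without each library in turn. Over all 25712 regions the first 5 of these counts were 583, 2102, 215, 1156 and 0, so the members moved much as the whole table did. For genes the main count was 4, with 6 by DESeq2, 2 under the block, 6 without both libraries 2, 0 in the joint fit and 2 to 4 without each library, against 648, 1190, 471, 1081 and 0 of all 14406 genes for the first 5. The labels link same-numbered patch libraries by the number alone, and whether they were prepared together is not stated. Their deviations correlate at -0.0043 to 0.0353, and those of other B and T pairs at -0.0474 to 0.0753. Under the block the genes Cd27 (adjusted p = 0.213) and Tnfrsf13b (0.0579) and the regions at Cd27 (0.237) and Tnfaip8l1 (0.140) were lost, while the genes Tnfrsf13c and Tnfsf18 passed. Joined, 1 spread covers both capture sizes, and 26 member regions and 9 member genes were called at 100 nuclei instead of 0, beside 27.0% of all regions and 15.5% of all genes; without each library in turn the 100-nuclei counts were 0. For the capture size test, DESeq2 called 10 regions and 4 genes instead of 0, and leaving out 1 library gave 0 to 3 of each; both highest counts were without T 100-nuclei library 1. With library size alone, 232 of the 594 regions called in patches were higher in B, against 314 of 583, and the median of all regions was -0.19 instead of -0.03. Counting only protein-coding genes as nearest gave 113 member regions, and a 10 kb limit 79. With 8 to 37 member regions read per T library of 100 nuclei, most single regions cannot be compared at that depth.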
